A study of Mus musculus with 3 samples.

Results

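The activator protein 1 (AP-1) family comprises the Fos and Jun proteins and the basic leucine zipper proteins that pair with them. Ser5-phosphorylated Pol_II was measured at the 10 genes Fos, Fosb, Fosl1, Fosl2, Jun, Junb, Jund, Atf3, Batf and Maff, chosen by name from the 22350 protein-coding genes that the GENCODE M1 annotation places on chromosomes 1 to 19 and X of mm9. The cells were primary bone marrow-derived macrophages of female Fvb mice (Fvb/Hsd in the study's methods) on day 7 of differentiation in L929-conditioned medium, and no genetic change was given for any library. There were 3 libraries. A Ser5 ChIP-Seq library was made from untreated cells and another from cells given lipopolysaccharide (LPS) at 10 ng/ml for 2 h, and untreated cells also gave the input DNA, with no antibody. The labels and the study's text name LPS alone for the stimulated library, whereas a picture of its profile names gamma interferon as well, so that a share of interferon in any difference after LPS cannot be told apart. The ChIP used the Abcam antibody against the Pol_II repeat YSPTSPS phosphorylated at serine 5. With 1 library per condition no test was possible, and the intervals given in brackets are exact 95% intervals that cover the counting of tags and nothing else.

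AP-1 dimers bind short palindromes, the TPA response element (TRE, TGACTCA) and the cAMP response element (CRE, TGACGTCA). Fos proteins bind DNA with a Jun partner, whereas Jun proteins also pair with each other, and ATF3, BATF and the small Maf proteins such as MAFF lack the long activation domains of FOS and JUN. In macrophages AP-1 acts with NF-κB and PU.1 at inflammatory genes, and several of its genes are themselves early targets of MAP kinase signaling. Phosphorylation of serine 5 of the Pol_II tail is placed as transcription begins. The study describes it as kept along the transcribed gene and removed at its very 3′ end.

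The sequences upstream of Fos, Jun, Junb and Atf3 are shown because the results turn on these genes, which had the lowest and the highest ratios of LPS to untreated around the start. They come from the RefSeq promoter table of GRCm38.p6, which held 9 of the 10 genes (not Fosl1), and each was matched without a difference to mm9, whose coordinates follow. They are written 5′ to 3′ on the strand of the gene and end where the first GENCODE M1 exon begins. The stretches are chr12:86814590-86814839 on the plus strand for Fos, chr4:94718914-94719163 on the minus strand for Jun, chr8:87502618-87502897 on the minus strand for Junb and chr1:193007220-193007462 on the minus strand for Atf3. Capitals mark a TATA box spelled TATAAA, then the CCAAT box, a κB site, the CRE or a copy of it with 1 mismatch, or TGACG as the half-site of the CRE.
Fos: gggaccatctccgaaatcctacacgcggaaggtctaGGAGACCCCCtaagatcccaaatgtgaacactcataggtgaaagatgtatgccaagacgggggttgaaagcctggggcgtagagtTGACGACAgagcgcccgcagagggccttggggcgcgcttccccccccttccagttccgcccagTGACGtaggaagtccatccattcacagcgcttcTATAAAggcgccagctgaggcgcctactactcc
Jun: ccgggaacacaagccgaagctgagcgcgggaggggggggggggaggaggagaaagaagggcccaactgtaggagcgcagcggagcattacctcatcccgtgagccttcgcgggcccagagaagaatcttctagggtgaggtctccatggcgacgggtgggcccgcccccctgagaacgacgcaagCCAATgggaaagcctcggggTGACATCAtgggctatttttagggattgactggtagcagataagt
Junb: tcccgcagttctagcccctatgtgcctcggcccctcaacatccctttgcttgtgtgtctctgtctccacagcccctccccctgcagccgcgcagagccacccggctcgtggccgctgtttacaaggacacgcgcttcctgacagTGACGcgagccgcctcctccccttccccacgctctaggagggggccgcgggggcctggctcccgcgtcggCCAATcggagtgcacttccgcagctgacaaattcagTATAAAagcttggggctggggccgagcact
Atf3: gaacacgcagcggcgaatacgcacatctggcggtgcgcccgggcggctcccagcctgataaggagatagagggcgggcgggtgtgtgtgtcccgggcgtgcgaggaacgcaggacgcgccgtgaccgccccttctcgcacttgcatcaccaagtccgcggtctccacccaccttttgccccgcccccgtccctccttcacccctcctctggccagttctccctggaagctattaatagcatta

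In the Fos stretch 186 tags were found in untreated cells, 86 after LPS and 5 in the input. The Jun stretch held 117, 80 and 1 tags, the Junb stretch 234, 292 and 6, and the Atf3 stretch 31, 69 and 2, in the same order. Both stretches with fewer tags after LPS and both with more had a CRE-related motif in their 300-base RefSeq window, since in Atf3 the copy TTACGTCA lies at -10 to -3 from the RefSeq start, partly beyond the part shown. Counted over the 300-base windows of the 9 genes, on both strands, an exact CRE occurred at 1 gene (Maff) and in 1.79% of all 32817 windows. Maff alone had more than 1 window, and a gene counted if any of its windows matched, whereas the shares are of single windows. The Jund window lay at the annotated gene start and held 4, 9 and 1 tags, in the order given above. A TRE occurred at 0 of the 9 genes and in 5.20% of windows. The CRE with at most 1 mismatch (12.5% of windows, and overlapping the exact CRE) was found at Fos, Jun, Atf3 and Maff, and TGACG (20.8%, which overlaps both) at Fos, Fosb, Junb, Atf3, Batf and Maff. These last searches were added after the sequences had been seen. The κB site (8.46% of windows) matched at Fos, Fosb, Fosl2 and Maff, and the TATA box (13.6%) at Fos and Junb. CCAAT (37.4%) matched at Jun, Junb and Atf3, and the CArG box (1.63%) at 0 genes. At Atf3 the CCAAT match lies at 5 to 9 after the RefSeq start, on the opposite strand and beyond the part shown. The windows begin 250 bases before the RefSeq start, and sequence further upstream was not searched for any motif. A match says only that these letters occur there, and none of these motifs was held by both Fos and Jun and by neither Junb nor Atf3, or the reverse.

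The libraries held 7616771 tags (untreated), 6249819 tags (LPS) and 7533308 tags (input) on chromosomes 1 to 19 and X, and densities are given per kb after scaling each library to 1000000 of these tags (TPM). As a check of the labels, Ccl5, a chemokine gene switched on by LPS, had 24 tags over the gene in untreated cells and 7803 after LPS. The cell type was checked with 5 macrophage markers found in the annotation, which lay at 2.67 to 116 times the input in untreated cells. After LPS Itgam lay at 0.613 times the input and Emr1 at 14.5 times, against 2.67 and 4.84 times in untreated cells, and the summed density of the 5 was 69.3 TPM per kb against 170, most of it from Lyz2 and Cd68. Markers of T cells, B cells, natural killer cells, fibroblasts, neutrophils and epithelium reached at most 2.18 TPM per kb in either Ser5 library, the highest being S100a8. Relative to the input the highest was Lck, a T cell gene, at 3.12 times in untreated cells and 3.42 times after LPS. The sums of these lists were between 0.0774 and 2.72 TPM per kb. The part of these markers in the results was not tested. Fewer cells of a kind and less Pol_II per cell cannot be told apart in such bulk libraries.

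All 10 genes had a deposited Ser5 peak within 1 kb of the annotated transcription start site (TSS) in both libraries. Over all coding genes such a peak was present at 48.0% in untreated cells and at 45.9% after LPS. Over the annotated gene, Ser5 exceeded the input at each of the 10 genes in both libraries, with intervals of the ratio above 1, the lowest being Fosb after LPS at 1.64 times (1.10–2.48). The family spanned a wide range of density, and its order changed with LPS. In untreated cells Junb was highest at 61.1 TPM per kb (57.0–65.4). Jund at 35.8 (33.3–38.4) and Jun at 33.2 (31.0–35.6) followed with overlapping intervals, then Fos at 18.8 (17.2–20.6) and Atf3 at 9.49 (8.89–10.1). Below these came Batf at 3.25 TPM per kb, and Maff, Fosl2, Fosb and Fosl1 between 1.88 and 2.42 TPM per kb, each of which overlapped its neighbour in the order. After LPS Junb was again highest at 127 TPM per kb (121–134), and Jund at 43.0 (40.0–46.1) and Atf3 at 31.5 (30.3–32.8) came next. Jun at 14.2 (12.6–16) and Fos at 9.31 (8.06–10.7) now stood below Atf3. Batf at 4.42, Maff at 3.04, Fosl2 at 1.79, Fosl1 at 1.42 and Fosb at 1.31 TPM per kb came last, and among these the intervals of Fosl2, Fosl1 and Fosb overlapped one another. The input was between 0.757 and 1.24 TPM per kb at all 10 genes. Atf3 thus stood in the fifth place of the order before LPS and in the third after it. Jun stood in the third and the fourth place. These places are for density over genes of 1807 bp (Junb) to 22419 bp (Batf), which averages a signal at the start over the whole length. Within 1 kb of the TSS the order was different. In untreated cells Junb had 63.6 TPM per kb there, Jun 52.0, Fos 39.5, Fosl2 31.5 and Atf3 28.9. After LPS Junb had 118, Atf3 77.2, Jun 30.1, Fos 21.4 and Fosl2 20.2.

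**Figure D1:**
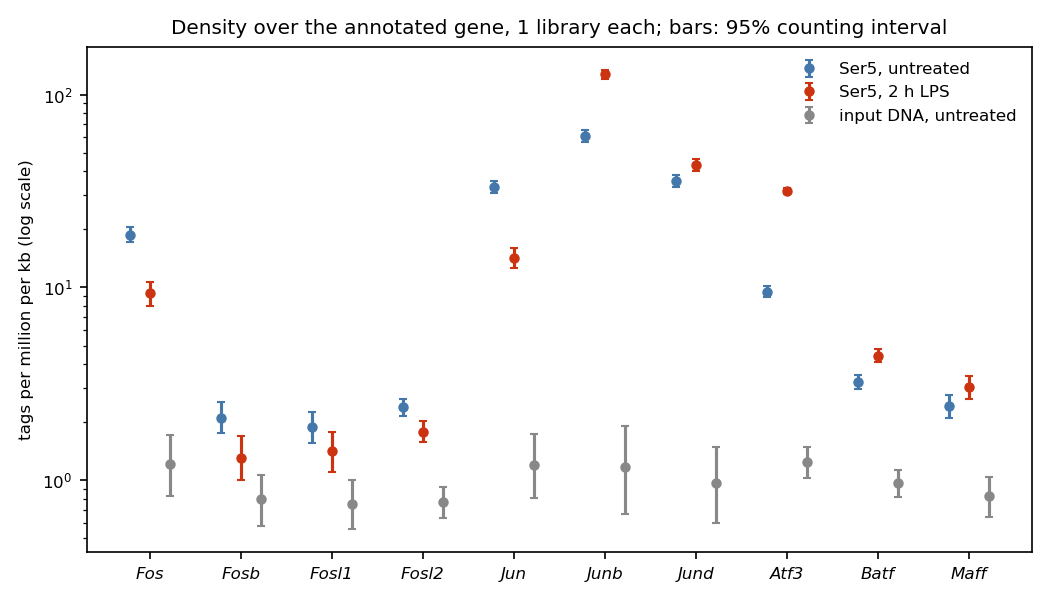
Ser5 and input density over the annotated gene (TPM per kb, log axis) for the 10 AP-1 genes in untreated cells (blue), after 2 h of LPS (red) and in the input of untreated cells (grey), with bars for the 95% counting interval of 1 library each. Junb and Atf3 stand higher after LPS, Fos and Jun stand lower, and the input lies between 0.757 and 1.24 at every gene.

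Over the gene, 2 members (Junb and Atf3) had ratios of at least 2 after LPS and 2 (Fos and Jun) ratios of at most 0.5, where a gene needed 10 tags over both Ser5 libraries. Of the 17386 coding genes with that many tags 5.83% were higher and 11.3% lower by the same rule. The median ratio of LPS to untreated was 0.978 over the 10 members and 0.874 over all coding genes. Within 1 kb of the TSS, 1 member (Atf3) was higher and 0 were lower, against 5.58% and 14.1% of 12535 coding genes, and the median was 1.16 for the members and 0.831 for all. After the first 1 kb of the gene, 2 members (Junb and Atf3) were higher and 3 (Fos, Fosb and Jun) lower, against 6.65% and 12.2% of 16654 coding genes. In the 2 kb after the gene end 4 members (Fosb, Junb, Atf3 and Batf) were higher and 2 (Fos and Jun) lower, against 9.07% and 25.0% of 11218 coding genes. Fosb was called there from 4 and 12 tags, with 18 in the input, so that neither Ser5 library exceeded the input. When only tags outside all Ser5 peaks set the scale, every ratio shifts up by 0.11 on the log2 scale. Since all genes shift alike, the place of a member among the coding genes stays as it is. Jun lay at percentile 7.08 of the ratio over the gene, Fos at 10.9, Junb at 94.6 and Atf3 at 98.1.

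**Figure D2:**
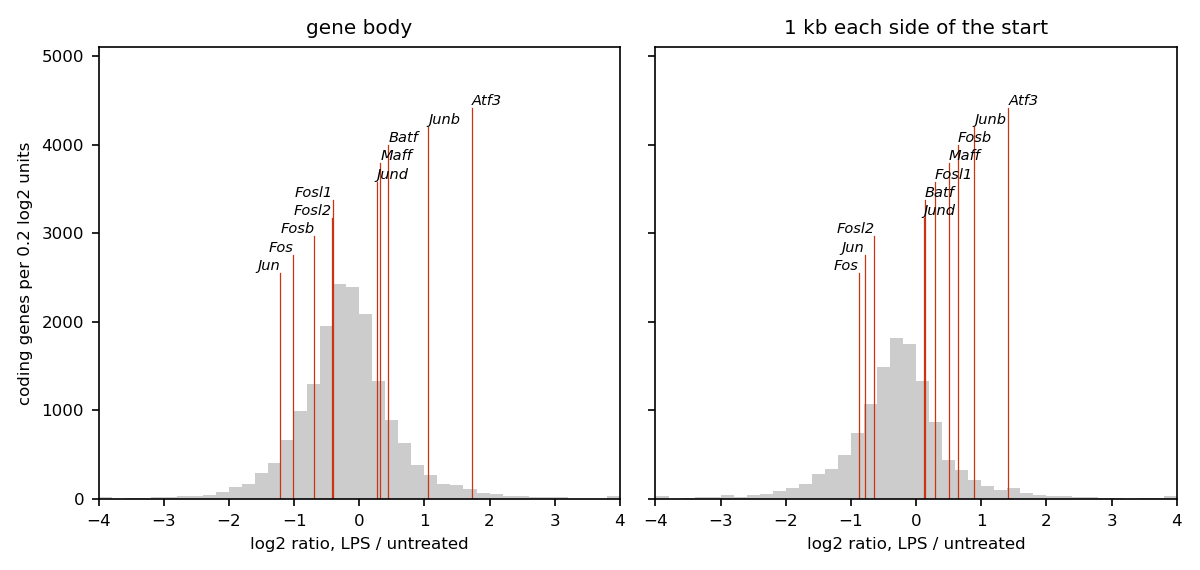
Number of coding genes by log2 ratio of LPS to untreated, over the annotated gene (left, 17386 genes) and within 1 kb of the start (right, 12535 genes), with the 10 AP-1 genes marked by red lines whose heights carry no value. Genes beyond 4 log2 units are counted in the last bin. Jun and Fos lie in the lower flank and Junb and Atf3 in the upper flank over the gene, and the others lie nearer the middle.

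Fos, the founding member of the family and a classical serum-induced gene, lies at 86814840 to 86818223 on the plus strand of chromosome 12 (ENSMUSG00000021250.7) and has 4 exons. Over the gene 485 tags were found in untreated cells, 197 after LPS and 31 in the input, and the ratio of LPS to untreated was 0.495 (0.417–0.585), an interval that includes 0.5. In the TSS window the tags were 602, 268 and 31, with a ratio of 0.543 (0.468–0.628). Levels before 2 h of LPS were not measured, here or at the other genes. At 2 h the signal was lower than in untreated cells along the whole gene, but not to the same degree. After the first 1 kb there were 116 tags in untreated cells, 30 after LPS and 17 in the input, a ratio of 0.315 (0.204–0.474), and in the 2 kb after the gene end 99, 21 and 9, a ratio of 0.259 (0.153–0.417). In untreated cells the authors' peak at Fos ran over 3562 bp, from 701 bp before the TSS to 2860 bp after it, and reached into exon 4, the last one. After LPS the peak was 701 bp long and reached 504 bp into the gene, into intron 1. The density in the TSS window was 6.18 times that of the rest of the gene in untreated cells and 10.6 times after LPS. The median over 9160 coding genes with at least 50 tags in each region was 11.1 in untreated cells and 10.4 after LPS.

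Fosb (chromosome 7, 19888070 to 19895394, minus strand, ENSMUSG00000003545.2), whose product resembles FOS, showed opposite differences at its start and inside the gene. In the TSS window there were 53 tags in untreated cells, 68 after LPS and 30 in the input, a ratio of 1.56 (1.08–2.28). After the first 1 kb there were 81, 21 and 31 tags, a ratio of 0.316 (0.186–0.516). These intervals do not overlap, and after LPS the inner part of the gene was at 0.817 times the input (0.446–1.47). A peak called only in untreated cells covered 1349 to 1979 bp after the TSS, within intron 1, and held 52 tags in untreated cells, 13 after LPS and 5 in the input, a ratio of 0.305 (0.152–0.567). As this site was chosen by a peak in the library with more tags, its ratio is a description. Over the whole gene Fosb had 118, 60 and 44 tags, and the ratio of 0.620 (0.446–0.853) averages both patterns. The 2 kb after the gene, which overlap the noncoding RNA gene Gm17589, held 4 and 12 tags in the Ser5 libraries and 18 in the input, so that neither exceeded the input.

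Fosl1, which encodes FRA-1, lies on chromosome 19 from 5447703 to 5455945 (plus strand, ENSMUSG00000024912.5). It had the lowest signal of the family around the start, with 35 tags in untreated cells, 35 after LPS and 23 in the input, and in untreated cells its ratio to the input of 1.51 (0.865–2.67) includes 1. Peaks of 469 and 476 bp at the start were nevertheless called in the untreated and the LPS library. Over the gene there were 118, 73 and 47 tags, a ratio of 0.754 (0.555–1.02). Its 3′ part overlaps Ccdc85b, a coding gene of the opposite strand that begins beyond the Fosl1 end. The 178, 79 and 25 tags in the 2 kb after Fosl1 include the start of that gene, and ChIP tags do not tell the 2 genes apart.

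Fosl2, which encodes FRA-2, lies on chromosome 5 from 32438845 to 32460204 (plus strand, ENSMUSG00000029135.9). In contrast to Fosl1 it carried a strong signal at the start, with 480 tags in untreated cells, 253 after LPS and 18 in the input within 1 kb of the TSS, a ratio of 0.642 (0.549–0.75). Most of these tags lay before the annotated start, where 366, 209 and 18 were counted against 114, 44 and 0 in the first 1 kb of the gene. The fullest 100 bp bin began 700 bp before the start in untreated cells and 900 bp before it after LPS. The peaks reached from 1713 bp before to 312 bp after the start in untreated cells and from 1535 bp before to 400 bp after it with LPS. Only 1 start is annotated for this gene. Upstream the ratio was 0.696 (0.584–0.827) and downstream 0.470 (0.324–0.672), and along the remaining 20359 bp it was 0.864 (0.716–1.04). There the density was 1.77 TPM per kb in untreated cells and 1.53 after LPS, which was 2.19 times (1.77–2.73) and 1.90 times (1.51–2.39) the input.

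**Figure D3:**
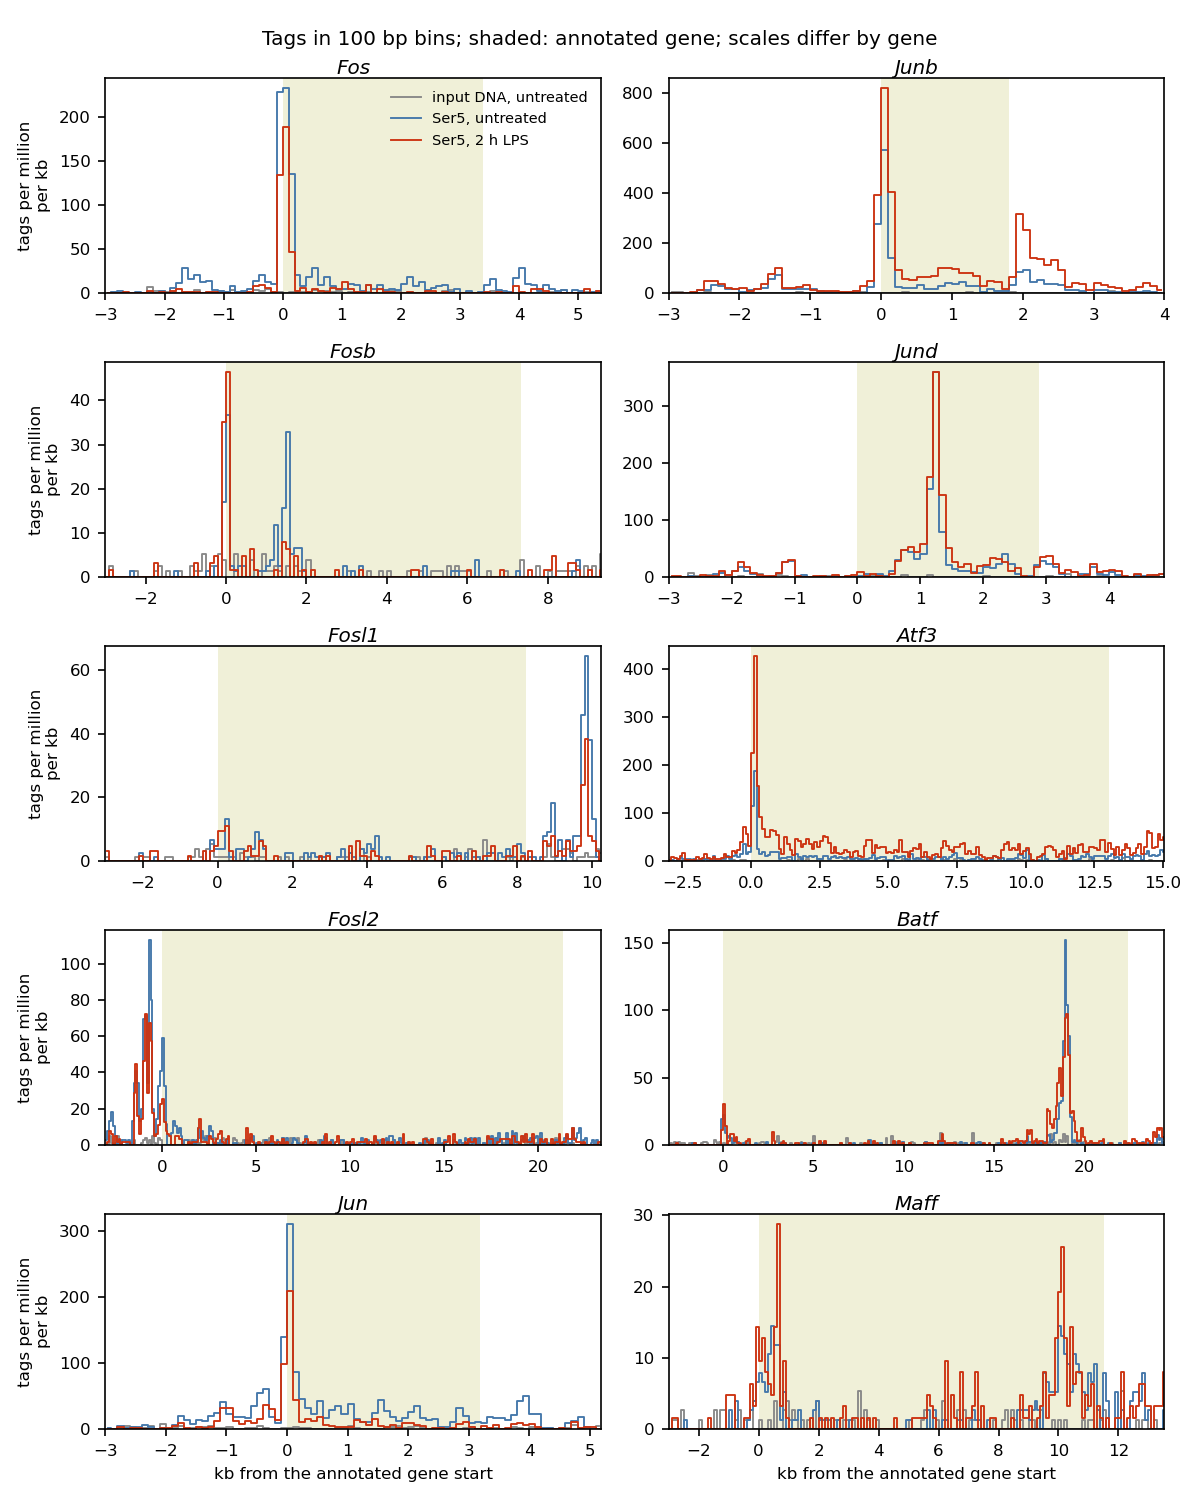
Tags in 100 bp bins (TPM per kb, linear axis with its own scale in each panel) by distance from the annotated start for the 10 AP-1 genes, in untreated cells (blue), after LPS (red) and in the input (grey), with the annotated gene shaded. Signal stands at the start of Fos, Jun, Junb and Atf3, before the start of Fosl2, 1219 bp inside Jund and near the end of Batf, and the site in intron 1 of Fosb has fewer tags after LPS.

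Jun, an intronless gene that encodes the founding Jun protein, lies on chromosome 4 from 94715725 to 94718913 (minus strand, ENSMUSG00000052684.3). It had 807 tags in untreated cells, 284 after LPS and 29 in the input, and its ratio of 0.429 (0.373–0.492) was the lowest of the 10 genes and stayed below 0.5 over its interval. In the TSS window 792, 376 and 16 tags gave a ratio of 0.579 (0.510–0.655). As at Fos, the ratio was lower further along. It was 0.301 (0.232–0.387) after the first 1 kb, from 316, 78 and 22 tags, and 0.252 (0.178–0.350) in the 2 kb after the gene, from 213, 44 and 16 tags. In untreated cells 3 peaks covered nearly the whole stretch from 1820 bp before the TSS to 4217 bp after it. After LPS the peak at the start, from 1330 bp before to 826 bp after the TSS, was followed by short peaks of 699 and 458 bp in the gene and one of 429 bp after its end, from 3699 to 4127 bp after the TSS, inside Gm12703. Noncoding transcripts complicate the locus, since BC042782 on the opposite strand begins inside Jun and runs over its upstream region, and Gm12703 on the same strand covers part of the 2 kb after its end, so that Ser5 in these parts belongs to either gene.

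Junb, also intronless, lies on chromosome 8 from 87500811 to 87502617 (minus strand, ENSMUSG00000052837.4) and encodes a Jun protein that can restrain JUN. It had the highest density of the family in both libraries. Over the gene there were 841 tags in untreated cells, 1439 after LPS and 16 in the input, a ratio of 2.09 (1.91–2.27) whose interval includes 2. The difference was smallest before the start, at 1.5 (1.28–1.77) from 269 and 332 tags, and larger beyond it. In the TSS window the ratio was 1.86 (1.71–2.02) from 970 and 1481 tags. After the first 1 kb it was 2.52 (2.06–3.11) from 140 and 290 tags. In the 2 kb after the gene, where no other gene is annotated, 402, 993 and 30 tags gave 3.01 (2.68–3.39), above the interval of the TSS window. A second maximum of Ser5 lay just after the annotated end in both libraries, visible in the plot of bins, and a single peak of 4338 bp (untreated) or 4461 bp (LPS) spanned the gene and this stretch and touched the end of the neighbouring gene Prdx2.

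Jund, the third Jun gene, lies on chromosome 8 from 73221638 to 73224515 (plus strand, ENSMUSG00000071076.4) and encodes the Jun protein usually described as constitutively expressed. Over the gene it had 784 tags in untreated cells, 773 after LPS and 21 in the input, a ratio of 1.20 (1.09–1.33). Its levels were the closest to each other among the Jun genes. The annotated gene start missed most of the signal, with 152, 135 and 15 tags within 1 kb of it. The second annotated start, 1219 bp further in, had 705, 703 and 19 tags within 1 kb of it, a ratio of 1.22 (1.09–1.35). The ratio was 1.36 (1.06–1.75) in the 2 kb after the end, from 126 and 141 tags. The small coding gene Gm11175 lies on the opposite strand inside Jund, and its Ser5 cannot be told apart from that of Jund.

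Among the partners outside the Fos and Jun groups, Atf3 had the highest ratio of LPS to untreated of the family over the gene and in the TSS window. ATF3 is a stress-inducible factor known to restrain transcription of inflammatory genes, and its gene lies on chromosome 1 from 192994175 to 193007219 (minus strand, ENSMUSG00000026628.8). Over the gene 943 tags were found in untreated cells, 2572 after LPS and 122 in the input, a ratio of 3.32 (3.08–3.59). The tags were 440, 965 and 13 in the TSS window, with a ratio of 2.67 (2.39–3.0), and 605, 1792 and 119 after the first 1 kb, with a ratio of 3.61 (3.29–3.96). These intervals do not overlap, so that the difference inside the gene exceeded that at the start. In untreated cells the authors called 1 peak at the start and 13 further peaks of 246 to 1018 bp along the gene. After LPS the same stretch was covered by a pair of peaks of 11596 and 6062 bp, the second of which ran beyond the annotated end to 16426 bp from the start. In the 2 kb after the end 175 and 400 tags gave a ratio of 2.79 (2.33–3.35).

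Batf, whose product pairs with Jun proteins and with IRF factors in lymphocytes and dendritic cells, lies on chromosome 12 from 87027619 to 87050037 (plus strand, ENSMUSG00000034266.5). Over the gene there were 555 tags in untreated cells, 620 after LPS and 163 in the input, a ratio of 1.36 (1.21–1.53). Most of them came from 1 place. A stretch of 2199 bp in intron 2, between 17830 and 20028 bp after the TSS (87045449 to 87047647), held 435 tags in untreated cells, 439 after LPS and 41 in the input, that is 78.4% and 70.8% of the Ser5 tags of the gene. There the ratio was 1.23 (1.07–1.41). Outside this stretch 120, 181 and 122 tags remained, with a density of 0.779 TPM per kb in untreated cells, 1.43 after LPS and 0.801 in the input, and the ratio was 1.84 (1.45–2.34). Leaving out the stretch was a choice made after its signal had been seen. At the start 61, 55 and 18 tags gave a ratio of 1.10 (0.749–1.61).

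Maff encodes a small Maf protein without an activation domain and lies on chromosome 15 from 79177971 to 79189502 (plus strand, ENSMUSG00000042622.7). It had 213 tags in untreated cells, 219 after LPS and 72 in the input, a ratio of 1.25 (1.03–1.52), and 73, 85 and 17 tags in the TSS window, a ratio of 1.42 (1.03–1.97). A peak between 9441 and 10987 bp after the TSS, over exon 2 and the beginning of exon 3, held 90, 87 and 6 tags, or 42.3% and 39.7% of the Ser5 tags of the gene. Without it the ratio was 1.31 (1.02–1.69).

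**Figure D4:**
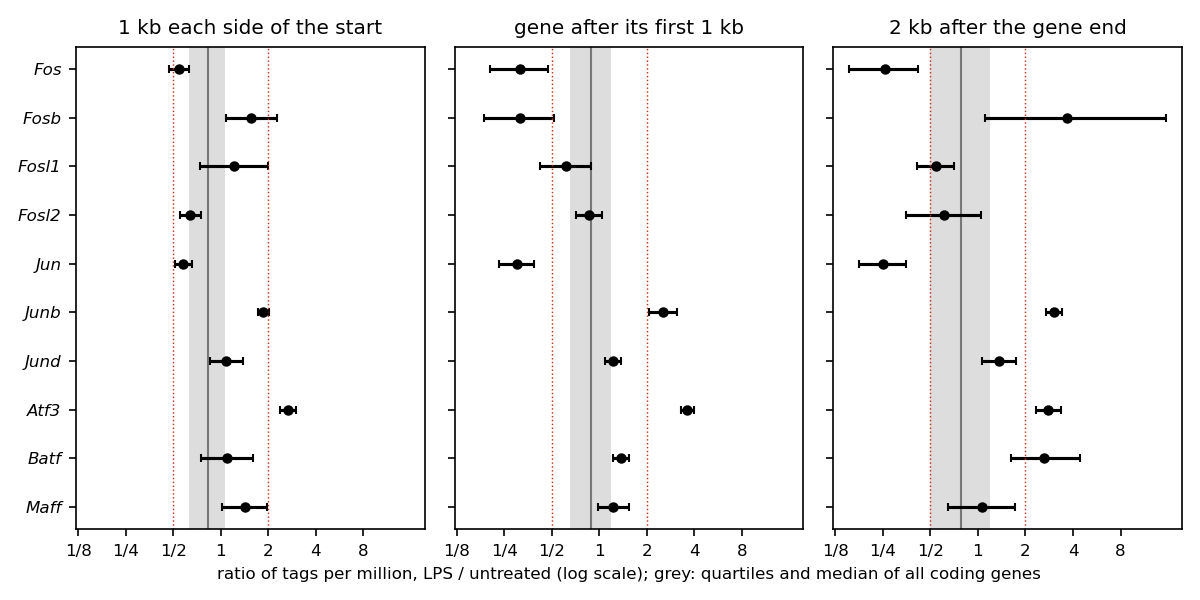
Ratio of LPS to untreated (TPM, log axis) for the 10 AP-1 genes within 1 kb of the start, in the gene after its first 1 kb and in the 2 kb after the gene end, with 95% counting intervals, dotted lines at ratios of 0.5 and 2, and the quartiles and median of all coding genes in grey. Fos and Jun lie further below 1, and Junb and Atf3 further above it, after the first 1 kb than at the start, and the bar of Fosb after its end rests on 4 and 12 tags.

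The start and the rest of the gene were then compared. At 6 of the 10 members (Fos, Jun, Junb, Jund, Atf3 and Batf) the ratio of LPS to untreated lay on the same side of 1 in both regions and further from 1 in the rest of the gene. The same held for 43.8% of the 9160 coding genes with at least 50 tags in each region. The interval of the ratio at the start includes 1 at Jund (0.852–1.37) and at Batf (0.749–1.61). At Jund the second annotated start, with most of the signal, lies in the rest of the gene. At Batf the rest holds the stretch in intron 2. On the log2 scale the ratio in the rest of the gene minus that at the start was -0.78 at Fos, -0.94 at Jun, 0.44 at Junb and 0.43 at Atf3, and over all those genes its quartiles were -0.28 and 0.42. Fosb had the largest difference, -2.31, with opposite sides at the start and inside. At Fosl1, Fosl2 and Maff the 2 regions differed by -0.98, 0.43 and -0.21.

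Ser5 peaks outside every annotated gene were examined within 50 kb of each member, with peaks of both libraries merged where they overlap. Such clusters with at least 10 tags numbered 70 near 9 members, of which 22 had at least 2 times more Ser5 after LPS and 18 at least 2 times less. Genome-wide 20.7% of 14681 clusters were higher and 35.7% lower. These regions were chosen by peaks in the same libraries, so their ratios are a description. Jun had 0 such clusters, and the noncoding genes BC042782 and Gm12703 cover much of its surroundings.

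Near Fos 0 of the 9 clusters were higher and 6 lower. The cluster 1491 bp before the start held 90 tags in untreated cells, 10 after LPS and 9 in the input, a ratio of 0.135 (0.0628–0.261). The cluster 4229.5 bp after the start, just beyond the gene, held 63, 14 and 1 tags, a ratio of 0.271 (0.140–0.489). Only the most distant upstream cluster, at 28960 bp, had more Ser5 after LPS, 65 and 69 tags with 14 in the input, and its ratio of 1.29 (0.908–1.84) includes 1.

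Near Batf the directions were opposite, with 10 of 11 clusters higher and 0 lower. The cluster 19603.5 bp before the Batf start held 3 tags in untreated cells, 45 after LPS and 3 in the input, a ratio of 18.3 (5.87–92.0). The 7 clusters between 46313 and 40673.5 bp before Batf, with 3 to 18 tags in untreated cells and 11 to 33 after LPS, follow the end of Jdp2, which encodes another partner of Jun proteins and is transcribed toward Batf. Over Jdp2 there were 511 tags in untreated cells, 835 after LPS and 280 in the input, a ratio of 1.99 (1.78–2.23), and 24, 51 and 13 in the 2 kb after its end. In the TSS window of Jdp2 170, 133 and 21 tags gave a ratio of 0.953 (0.754–1.20), an interval that includes 1. Jdp2, Fos and Batf are close neighbours on chromosome 12 in the order Fos, Jdp2, Batf, and over the gene Fos was lower after LPS while the other two were higher.

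Near Atf3, 7 of 14 clusters were higher and 0 lower. A run of 3 clusters between 13651.5 and 15837.5 bp from the start, in continuation of the gene end, held 29 to 139 tags in untreated cells and 66 to 324 after LPS, and the second long LPS peak of the gene covers them. Upstream, the cluster at 6703.5 bp held 2, 19 and 1 tags, and clusters at 14998.5 to 18020 bp had ratios of 0.731 to 0.888 with intervals that include 1. Near Junb, Fosb and Fosl1 the directions were mixed, whereas near Jund, Fosl2 and Maff, as near Fos, 0 clusters were higher. Junb had 1 higher and 1 lower of 7 clusters, Fosb 2 and 2 of 6, Fosl1 2 and 1 of 8, Jund 0 and 3 of 7, Fosl2 0 and 3 of 5, and Maff 0 and 2 of 3.

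**Figure D5:**
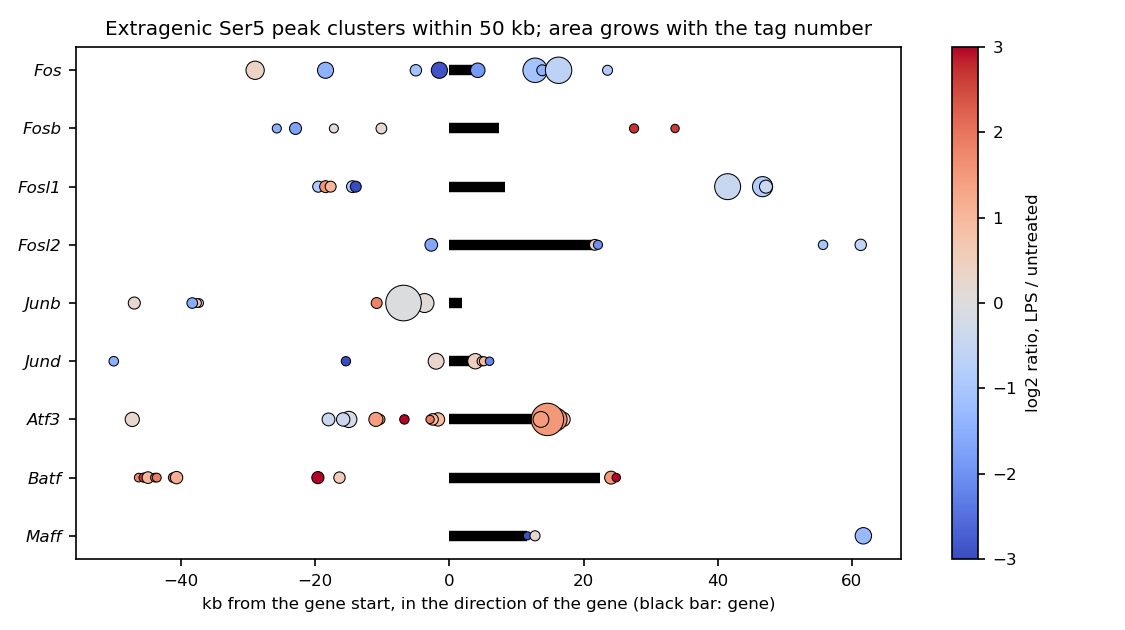
Clusters of Ser5 peaks outside every annotated gene within 50 kb of 9 AP-1 genes, by distance from the gene start in the direction of the gene (kb), colored by the log2 ratio of LPS to untreated (limited to 3 either way), with an area that grows with the number of tags and the gene as a black bar. Near Fos 6 of 9 clusters had ratios of at most 0.5, and near Batf 10 of 11 had ratios of at least 2.

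Other basic leucine zipper genes were counted as background. Of 36 such genes found in the annotation, 35 had at least 10 tags over the gene, of which 3 were higher and 1 lower, with a median ratio of 0.970. Of all coding genes 5.83% were higher and 11.3% lower over the gene by the same rule. Batf2, a relative of Batf, had 329 tags in untreated cells, 558 after LPS and 177 in the input, a ratio of 2.07 (1.80–2.38), and Nfe2l2, which encodes the antioxidant regulator NRF2, had 2060, 3423 and 202 tags, a ratio of 2.03 (1.92–2.14). Tef, a circadian output factor, had 277, 103 and 154 tags, a ratio of 0.453 (0.358–0.570). Within 1 kb of the start 0 of 34 were higher and 4 lower, against 5.58% and 14.1% of all coding genes. There Batf2 had 236 and 149 tags, a ratio of 0.769, and Nfe2l2 had 712 and 841, a ratio of 1.44.

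Genes of the MAP kinase pathways and of the serum response factors upstream of AP-1 had a median ratio of 1.06 over the gene. Of 35 such genes 5 were higher and 2 lower, against 5.83% and 11.3% of all coding genes. Mapkapk2, a kinase downstream of p38, had 1392 tags in untreated cells, 7261 after LPS and 326 in the input, a ratio of 6.36 (6.00–6.74). The p38 kinase gene Mapk11 had a ratio of 2.46 (1.71–3.59) from 46 and 93 tags, and Rps6ka4, which encodes the kinase MSK2, one of 2.41 (2.00–2.91) from 172 and 340 tags. Map2k4 at 2.34 (2.07–2.65) and Map3k5 at 2.31 (2.13–2.51), kinases of the JNK and p38 cascades, also passed. At these and at Mapk11 the input held about as many tags as untreated Ser5, with 46 untreated and 44 input tags at Mapk11, 402 and 421 at Map2k4, and 898 and 1088 at Map3k5. The genes that were lower were Map3k1, a kinase upstream of JNK, at 0.391 (0.348–0.438) from 1232 and 395 tags, and Elk3, a ternary complex factor that acts at serum response elements, at 0.4 (0.357–0.446) from 1290 and 423 tags. Within 1 kb of the start 2 of 33 were higher and 5 lower, against 5.58% and 14.1% of all coding genes. There Map3k5 had 153 and 98 tags, a ratio of 0.781. The ratio at the start was 2.93 at Mapkapk2, 1.96 at Mapk11, 1.41 at Map2k4 and 1.18 at Rps6ka4.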

How the data were processed

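The members and gene lists were chosen with earlier results of these data known. Per the study's methods, the authors trimmed reads of 76 bases, aligned them to mm9 with Bowtie (named in the submitters' processing notes without a version), kept unique matches with at most 2 mismatches, and called peaks of each Ser5 library against the input with MACS at p of at most 1e-05. As deposited, every aligned tag is listed by its coordinates and strand, duplicates included. The deposited peak score is minus 10 times the log10 of the MACS p-value and was used only to select peaks. Deposited tags span 45 bases (untreated), 30 (LPS) and 36 (input), whereas the study's supplement gives the lengths of the Ser5 libraries the other way round. Repeated stretches of 30 bases make up at most 7.95% of any member gene. Distinct positions were 81.4% to 84.5% of tags.

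Tags were counted at their 5′ end with Python 3 and scaled to all tags on chromosomes 1 to 19 and X. Poisson intervals for densities and Clopper-Pearson intervals, conditional on the sum, for ratios were exact and were tested on simulated data. A call needed a ratio of at least 2 or at most 0.5 and 10 tags over both Ser5 libraries, with 0 tags set to 0.5. Named from other lists were genes called with at least 50 tags over the gene. Alternatives were counting a position and strand once, moving tags by 75 bp, scaling to tags outside peaks, minimum counts of 50 or none, other windows and starts, and stricter peaks. Sequence and annotation came from NCBIM37, the assembly of mm9, with GENCODE M1, and differences of the Fvb genome from it were not examined. The number of mice behind each library and the cell numbers per mouse are not given in the sources used here.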

Additional observations from a re-analysis of the deposited data

How the results depend on the processing

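Among the counts of members called, those at least 2 times lower over the gene fell from 2 to 1 (Jun alone) with 1 tag per position and strand and also to 1 with scaling to tags outside peaks, where 10.1% and 8.97% of all coding genes were lower. Members at least 2 times higher in the TSS window numbered 2 (Junb and Atf3) in place of 1 with that scaling, where 6.36% of coding genes were higher. Members with a peak in the TSS window of untreated cells numbered 6 in place of 10 when the peak centre had to lie inside the window, because long peaks have their centres elsewhere. After LPS they numbered 8 by that rule, without Junb and Atf3. With a peak score of at least 100 they numbered 9 in untreated cells, without Fosl1. No share of all coding genes is given for these 2 rules. The ratio of Batf in the TSS window was 0.984 with 500 bp on each side in place of 1.10, and no other ratio of a member crossed 1 under the alternatives tried. Without duplicate tags the ratio in the TSS window moved to 0.644 at Fos, 0.656 at Jun and 2.34 at Atf3, and over the gene to 1.34 at Jund, outside the intervals of the reported values, and the cause was not tested. Single libraries per condition leave the spread between cultures unknown, so the intervals understate the error. No paired analysis was possible because each condition had 1 library.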
